A study of Mus musculus with 8 samples.

Results

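Foxp3 binding at the neighbouring genes Cd28, Ctla4 and Icos was profiled by CUT&Tag, in which a transposase held at an antibody inserts sequencing adapters into the DNA around the bound protein. The deposited tables list 5521 Foxp3 binding sites, split into common, eTreg-specific (effector Treg) and cTreg-specific ones, and 17 of them were given to these genes. Each went to the protein-coding RefSeq gene (GRCm38.p6) that held its centre within the body or 5 kb of it, and failing that to the nearest gene end within 100 kb. The 3 genes lie on chromosome 1 (mm10) at 60746388 to 60773359 (Cd28), 60909025 to 60915832 (Ctla4) and 60960773 to 61000322 (Icos).

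The cells were CD4+ regulatory T (Treg) cells sorted from spleen and lymph nodes of C57BL6/J animals. R397W cells came from mice with one Foxp3R397W-IRES-hCD2 allele and one Foxp3-IRES-GFP allele, and WT cells from mice with one Foxp3WT-IRES-hCD2 allele and one Foxp3-IRES-GFP allele. R397W is a missense change in the forkhead domain, the part of Foxp3 that contacts DNA. All groups were sorted as hCD2+GFP-, and thus used the hCD2-tagged allele, in a host whose other Treg cells express the intact GFP-tagged one. Each genotype had 2 libraries made with a rabbit anti-Foxp3 antibody and 2 made with normal rabbit IgG as background. No age is given, nor whether replicates 1 and 2 are different mice, so a p-value here reflects the spread between libraries alone, which may be technical. The tables hold binding at sites and no expression, so the labelled cell type could not be checked against its markers.

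CD28, CTLA-4 and ICOS are related cell-surface receptors of T cells. CD28 binds CD80 and CD86 on antigen-presenting cells and delivers the costimulatory signal that accompanies T cell receptor engagement. CTLA-4 binds the same ligands more tightly, removes them from the presenting cell and is carried constitutively by Treg cells, while ICOS binds its own ligand and marks activated and effector Treg cells. In the mouse genome the genes stand side by side and are all read in the direction of rising coordinates, so the first end of each is its transcription start.

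Each library had between 111274 and 394196 reads in the listed sites, and its full depth is not known. The 4 libraries numbered 2 had no reads at 44.4% to 66.8% of all sites, and the 4 numbered 1 at 3.13% to 27.0%. Where they did have reads, the libraries numbered 2 had a median of 74 to 103 per site, and those numbered 1 a median of 17 to 47. Values are read counts per site divided by a library factor, computed separately in each class, so levels are compared within a class. The factors scale Foxp3 and IgG libraries of both genotypes to each other on the listed sites. They rest on the sites with reads in all 8 libraries (815 of 3847 common, 58 of 727 cTreg-specific and 65 of 947 eTreg-specific). A change shared by most of those sites is therefore removed, and a shift at the other sites can remain. In these bulk libraries, fewer bound cells and less signal per cell cannot be told apart. Intervals on counts cover counting error only.

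Of the sequence tables used here, the promoter table held Ctla4 among the 3 genes, and for the sites themselves it covered 100 bases of one. That stretch is shown because it is part of a listed site. It is the first 100 bases of the eTreg-specific site centred 21.8 kb before Ctla4, and it spans the start of the noncoding RNA gene Gm39650 with 50 bases on either side. The Ctla4 promoter, 250 bases up to the base before the start, is shown because a common site ends 940 bp before the window. Both are from RefSeq (GRCm38.p6), plus strand, with matches to the forkhead letters TAAACA and to the NFAT core GGAAA, on either strand, in capitals.
Gm39650 stretch, chr1:60887039-60887138: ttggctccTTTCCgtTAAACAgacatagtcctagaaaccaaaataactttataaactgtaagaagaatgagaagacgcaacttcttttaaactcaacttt
Ctla4 promoter, chr1:60908775-60909024: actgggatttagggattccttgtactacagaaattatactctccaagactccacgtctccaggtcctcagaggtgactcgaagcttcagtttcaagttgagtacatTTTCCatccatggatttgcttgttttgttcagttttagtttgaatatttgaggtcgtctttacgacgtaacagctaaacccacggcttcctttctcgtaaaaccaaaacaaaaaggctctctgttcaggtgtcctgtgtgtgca
The Gm39650 stretch held TAAACA once, at bases 16 to 21, and 3.54% of the same stretch of all 32851 promoter windows did. It held GGAAA once, as did 26.0% of the windows at least once. The Ctla4 promoter held GGAAA once, as did 55.6% of windows at least once, and no TAAACA, which 12.0% of windows held. Neither sequence held the AP-1 and BATF letters TGANTCA, the repeat TTTGTTTG or the RUNX letters TGTGGT, and the ETS letters GGAAG occurred once in the Ctla4 promoter (64.1% of windows) and not in the Gm39650 stretch (37.4% of windows). No matches overlapped. These are letter matches in the windows searched, and the rest of that site and the other 16 were not searched.

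The 17 sites were spread unevenly over the genes and classes. Cd28 had 3 sites, Ctla4 5 and Icos 9, against a median of 1 site over the 2760 genes with a site. Only 37 of those genes (1.34%) had 9 or more. By class, 10 of the 17 sites were common (58.8%, against 69.7% of all sites), 6 were eTreg-specific (35.3%, against 17.2%) and 1 was cTreg-specific (5.88%, against 13.2%). The cTreg-specific site belonged to Cd28, and the 6 eTreg-specific sites belonged to Ctla4 (2) and Icos (4). Inside a gene body lay 6 of the 17 (35.3%, against 63.5% of all sites). These shares rest on the 100 kb limit. A limit of 10 kb for the nearest gene end kept 8 sites (2 of Cd28, 2 of Ctla4 and 4 of Icos). It dropped the 4 eTreg-specific sites past Icos and the site 19.6 kb before Icos. Also dropped were the sites 26.0, 21.8 and 10.3 kb before Ctla4 and the cTreg-specific site 32.5 kb before Cd28. Of those 8, 1 was eTreg-specific (12.5%, against 14.7% of all sites with a gene at that limit), and 6 lay inside a gene body (75.0%, against 81.8%).

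In order along the chromosome, the Cd28 sites lay 32.5 kb before the gene (cTreg-specific), at its start and 9.50 kb inside it. None of the listed sites lay in the 127 kb between the last Cd28 site and the first Ctla4 site. The Ctla4 sites lay 26.0 kb, 21.8 kb (eTreg-specific), 10.3 kb and 1.39 kb before the gene, and 4.44 kb inside it (eTreg-specific). The first Icos site lay 19.6 kb before the gene. Another 4 Icos sites, all common, lay 13.7, 17.1, 24.5 and 29.7 kb inside it. The 4 eTreg-specific Icos sites lay 26.6, 27.4, 30.5 and 45.9 kb past its end. Noncoding RNA genes overlapped some site centres, namely Gm38137 (26.0 and 21.8 kb before Ctla4), Gm39650 (21.8 kb before Ctla4) and Gm34649 (19.6 kb before Icos). The window from 100 kb before Cd28 to 100 kb after Icos held these 17 sites and no others. The next site towards lower coordinates was 297 kb away and given to Abi2. Towards higher coordinates the next site was only 56.3 kb from the last Icos site, and was given to no gene.

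**Figure D1:**
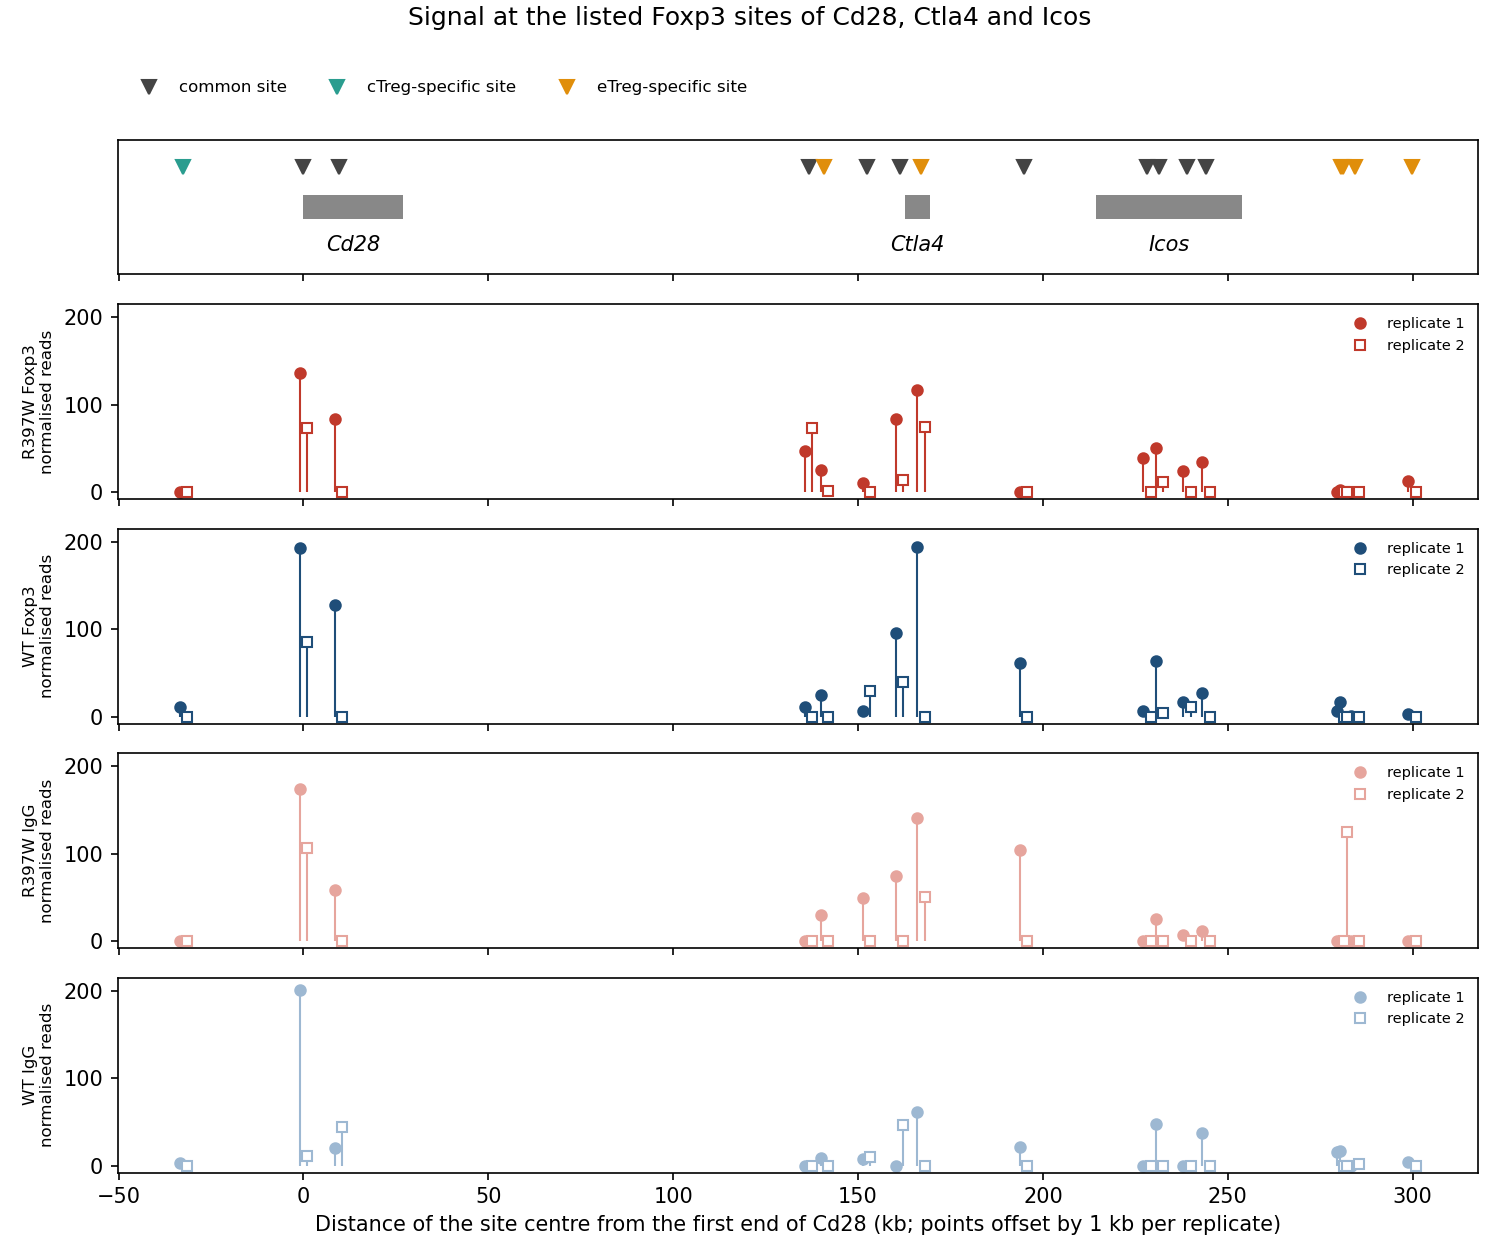
Positions and normalised read counts of the 17 sites, plotted against distance from the start of Cd28 in kb. Grey bars are gene bodies, triangles give the site class, and each lower panel shows the replicate values of one group (filled circles, replicate 1; open squares, replicate 2). Among the common sites the tallest values stand at the start of Cd28, and among the eTreg-specific sites inside Ctla4. Heights are not comparable between classes, and both sites also have high values in IgG libraries.

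Cd28, the activating receptor, had its main signal at its own start. The common site there (60746138 to 60746538, centre 50 bp before the gene) was the only one of the 17 with reads in all 8 libraries, as 17.0% of all sites had. Its normalised read count was 137 and 73.4 in R397W Foxp3 libraries (replicates 1 and 2), against 193 and 85.7 in WT Foxp3. In IgG libraries it was 174 and 106 in R397W cells, against 201 and 10.9 in WT cells. Thus 3 of the 4 IgG values lay within the range of the Foxp3 values or above it, and the groups overlapped in every comparison. The R397W Foxp3 mean stood at the 86.8th percentile of common sites and the WT Foxp3 mean at the 92.9th. R397W minus WT Foxp3 was −0.36 (SE 0.75) on the log2(count + 1) scale, with adjusted p = 1 in limma. Foxp3 minus IgG was −0.44 (SE 1.11) in R397W and 1.40 (SE 1.11) in WT cells, and the difference between these was −1.84 (SE 1.57), with adjusted p of 1, 0.991 and 1 in limma. The direction of each rested on single libraries. R397W minus WT was 0.09 without R397W Foxp3 replicate 2 and 0.22 without WT Foxp3 replicate 1. Foxp3 minus IgG was 0.0041 in R397W without R397W Foxp3 replicate 2 and −0.64 in WT without WT IgG replicate 2, and the difference between genotypes was 0.20 without WT IgG replicate 2.

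Within the body of Cd28 (60755689 to 60756089), reads appeared mostly in the libraries numbered 1. The count there was 84.0 and 0 in R397W Foxp3, 127 and 0 in WT Foxp3, 58.8 and 0 in R397W IgG, and 19.8 and 44.3 in WT IgG (replicates 1 and 2). The cTreg-specific site before Cd28 (60713680 to 60714080) had reads in WT replicate 1 alone, 10.9 with anti-Foxp3 and 2.57 with IgG. The groups overlapped at both sites in every comparison.

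Ctla4, the inhibitory receptor, had the one site at which the genotypes did not overlap. This common site, 26.0 kb before the gene (60882799 to 60883199), had 47.3 and 72.8 normalised reads in R397W Foxp3 libraries, against 10.9 and 0 in WT Foxp3 (replicates 1 and 2). All 4 IgG libraries had 0. Recovered reads were 18 and 113 in R397W Foxp3, against 9 and 0 in WT Foxp3. The R397W values were both above the WT ones, and both above IgG. Of all 5521 sites, 6.43% had R397W Foxp3 above WT without overlap and 12.6% below, so 1 higher and 0 lower of 17 lie at or under these shares. The mean was 60.0 ± 18.1 in R397W and 5.46 ± 7.72 in WT (SD, n = 2 each). The fitted difference was 4.11 (SE 2.71) on the log2(count + 1) scale and did not pass (adjusted p = 1, unadjusted 0.176, in limma). A 0 in IgG does not bound the background, since R397W IgG replicate 2 lacked reads at 14 of the 17 sites. At the others its median was 131 reads. With each R397W IgG library at 0 set to 3 reads, the R397W Foxp3 mean was 13.8-fold higher, which is not a lower limit. By same-numbered pairs, that ratio was 6.96-fold for replicate 1 and 38.1-fold for replicate 2. Pairs of the same number, here and below, are descriptive, since the labels state no shared animal. The fitted Foxp3 minus IgG difference there was 5.90 (SE 2.84), the only one of the 17 with an unadjusted p under 0.05 in limma (0.0379, against 1.47% of all sites), and it did not pass after adjustment (adjusted p = 1). At the same site the difference between genotypes in Foxp3 minus IgG was 4.11 (SE 4.02), with adjusted p = 1 in limma. The R397W minus WT value stayed above 0 with each Foxp3 library left out in turn, from 2.32 without WT Foxp3 replicate 2 to 5.90 without WT Foxp3 replicate 1.

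Next to the Ctla4 start, the common site 1.39 kb before the gene (60907435 to 60907835) had 84.0 and 13.5 in R397W Foxp3, against 95.8 and 40.0 in WT Foxp3. IgG gave 74.7 and 0 in R397W cells, against 0 and 46.3 in WT cells. The groups overlapped, and IgG reached Foxp3 levels in R397W replicate 1 and WT replicate 2. R397W minus WT Foxp3 was −0.84 (SE 1.31) and WT Foxp3 minus IgG 3.20 (SE 2.81), with adjusted p of 1 and 0.991 in limma. The first became 0.43 without R397W Foxp3 replicate 2, and the second 0.42 without WT IgG replicate 1.

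The strongest eTreg-specific signal of the 17 sites was inside Ctla4 (60913269 to 60913669). It had 117 and 74.2 in R397W Foxp3, against 194 and 0 in WT Foxp3. R397W IgG was 141 and 50.4, and WT IgG 61.6 and 0. The WT Foxp3 mean, at the 95.5th percentile of eTreg-specific sites, came from replicate 1 alone. In R397W cells Foxp3 averaged 95.7 ± 30.5 and IgG 95.9 ± 64.3 (SD, n = 2 each). R397W minus WT was 2.76 (SE 2.46) in limma (adjusted p = 1). It was −1.05 without WT Foxp3 replicate 2 and −0.018 with edgeR on recovered reads. At the eTreg-specific site 21.8 kb before the gene, whose first bases are printed above, the count was 25.1 and 0.781 in R397W Foxp3 and 24.3 and 0 in WT Foxp3, against 29.8 and 0 in R397W IgG and 8.17 and 0 in WT IgG. Nearer still, at 10.3 kb before the gene (60898551 to 60898951), Foxp3 gave 10.5 and 0 in R397W, against 6.06 and 29.3 in WT, and IgG gave 49.8 and 0 in R397W, against 7.93 and 9.95 in WT.

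Icos, the receptor of activated and effector Treg cells, had the most sites and the lowest mean Foxp3 level over its common sites. At 17.1 kb inside the gene (60977662 to 60978062), Foxp3 exceeded IgG in all 4 same-numbered pairs, as at 6.29% of all sites. The count was 49.9 and 11.6 in R397W Foxp3 and 63.1 and 3.72 in WT Foxp3, against 24.9 and 0 in R397W IgG and 47.6 and 0 in WT IgG. In WT replicate 1 the recovered reads were 52 with anti-Foxp3 and 72 with IgG, so the direction of that pair rested on the library factors. WT Foxp3 replicate 2 had only 8 recovered reads. R397W minus WT was 0.54 (SE 2.21; adjusted p = 1 in limma). This direction was not held, with −1.34 without WT Foxp3 replicate 2, −0.47 without R397W Foxp3 replicate 1 and −0.12 with edgeR on recovered reads. Foxp3 minus IgG was 2.31 (SE 3.22) in R397W and 1.32 (SE 3.22) in WT cells, with adjusted p = 1 in limma for both. It was −0.033 in R397W without R397W IgG replicate 2, and in WT −0.56 without WT Foxp3 replicate 1 and −1.48 without WT IgG replicate 2.

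One of the Icos sites separated WT Foxp3 from WT IgG. At 24.5 kb inside the gene (60985114 to 60985514), WT Foxp3 had 17.0 and 10.7 and WT IgG 0 in both libraries. R397W Foxp3 had 23.6 and 0 there, and R397W IgG 6.79 and 0. With each WT IgG library at 0 set to 3 reads, the WT Foxp3 mean was 7.97-fold higher (by pairs, 8.56-fold for replicate 1 and 7.17-fold for replicate 2). This is not a lower limit, since WT IgG replicate 2 lacked reads at 12 of the 17 sites and had a median of 22 at the others. The fitted WT difference was 3.86 (SE 2.83; adjusted p = 0.991 in limma), R397W minus WT Foxp3 was −1.55 (SE 3.56; adjusted p = 1) and the difference between genotypes in Foxp3 minus IgG was −3.03 (SE 4.01; adjusted p = 1). Without R397W Foxp3 replicate 2, R397W minus WT was 0.76 and the difference between genotypes −0.72. That difference was −5.34 without R397W Foxp3 replicate 1, −1.55 without R397W IgG replicate 1 and −5.39 with edgeR on recovered reads. Among the 17 sites it was the 1 with WT Foxp3 above WT IgG without overlap (19.5% of all sites), and 0 were below (4.84%). In R397W cells 1 of 17 was above, the site 26.0 kb before Ctla4, against 10.4% of all sites, and 0 were below, against 7.84%.

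Other sites inside Icos gave reads chiefly in the libraries numbered 1. At 13.7 kb (60974290 to 60974690), R397W Foxp3 had 39.4 and 0 and WT Foxp3 6.06 and 0, with IgG at 0 in all 4 libraries. At 29.7 kb (60990254 to 60990654) the count was 34.1 and 0 in R397W Foxp3 and 26.7 and 0 in WT Foxp3, against 11.3 and 0 in R397W IgG and 37.7 and 0 in WT IgG. The site 19.6 kb before the gene (60940990 to 60941390) had 0 in both R397W Foxp3 libraries, against 61.9 and 0 in WT Foxp3, while R397W IgG had 104 and 0 and WT IgG 21.8 and 0. The highest value of these was thus an IgG one.

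Past the end of Icos, the 4 eTreg-specific sites had little signal with anti-Foxp3, at most 12.6 in R397W and 16.5 in WT libraries. Their WT Foxp3 means lay between the 2.64th and 24.3rd percentiles of eTreg-specific sites. R397W Foxp3 replicate 2 had 0 at all 4 of them, and so did WT Foxp3 replicate 2. The highest value in this group was 125 in R397W IgG replicate 2, at the site 27.4 kb past the gene (61027489 to 61027889), where R397W Foxp3 had 2.09 and 0 and WT Foxp3 16.5 and 0.

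**Figure D2:**
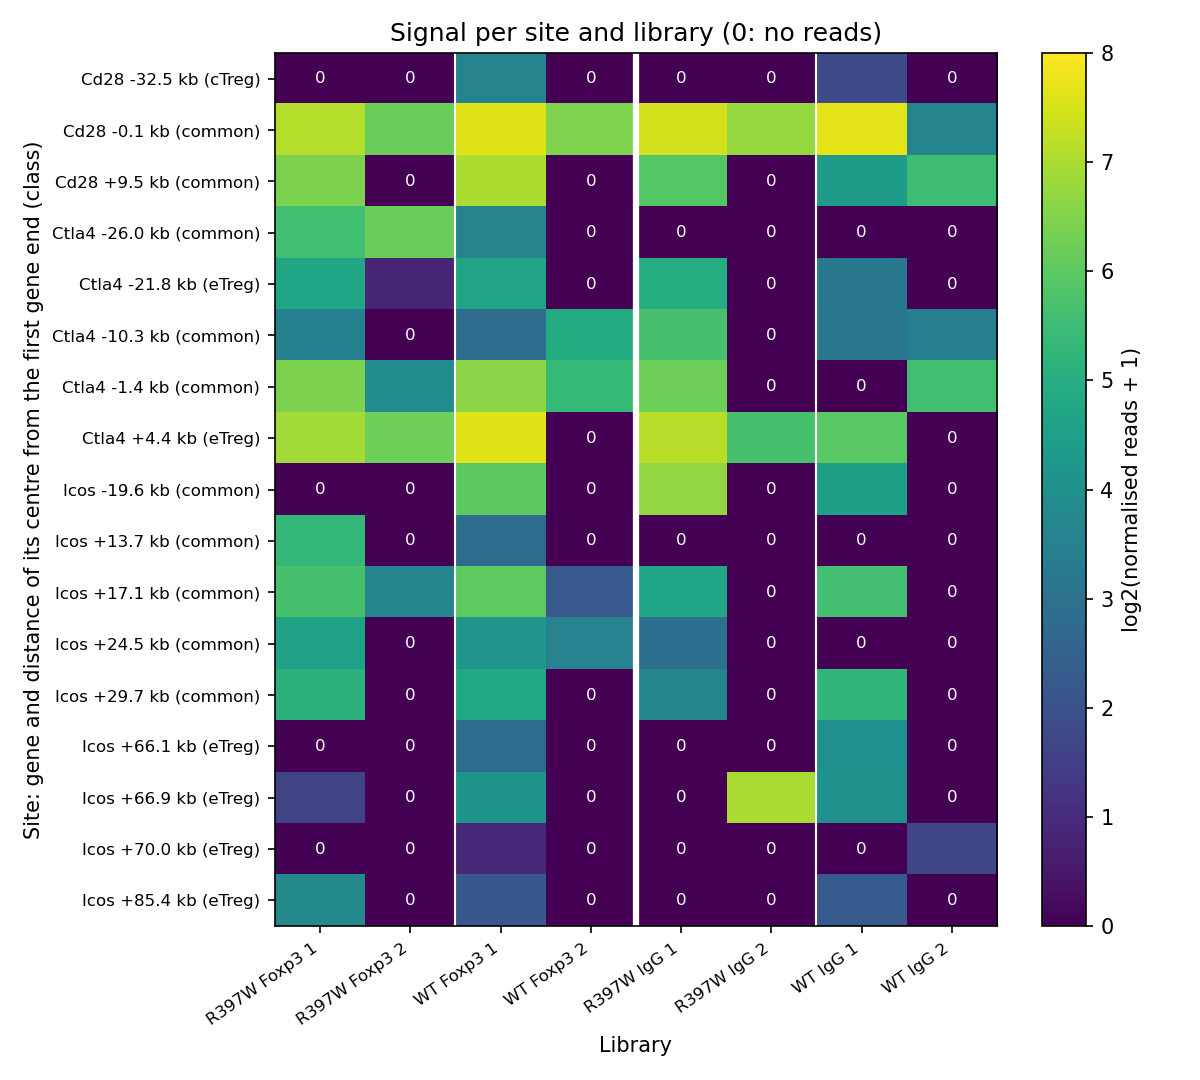
Signal at each of the 17 sites (rows, in chromosome order) in each of the 8 libraries (columns), as log2(normalised reads + 1), with 0 marking sites without reads. Sites are labelled by gene and by the distance of their centre from the gene's first end, so that the site at the start of Cd28 reads -0.1 kb. Reads at that site are present in every library, and the libraries numbered 2 lack reads at 11 to 14 of the 17 sites.

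The levels of the genes were compared on the common sites, which share one scale and one length. The mean normalised read count per common site at Cd28 (2 sites) was 110.3 and 36.7 in R397W Foxp3, against 160.1 and 42.8 in WT Foxp3 (replicates 1 and 2). At Ctla4 (3 sites) it was 47.3 and 28.8 in R397W, against 37.6 and 23.1 in WT. At Icos (5 sites) it was 29.4 and 2.32 in R397W, against 34.9 and 2.89 in WT. All common sites averaged 56.3 and 37.5 in R397W Foxp3, against 62.9 and 38.1 in WT Foxp3. The order Cd28, Ctla4, Icos held within each of the 4 Foxp3 libraries. The replicate ranges of neighbours in that order overlapped, except for Cd28 and Ctla4 in WT, where the lower Cd28 value of 42.8 exceeded the higher Ctla4 value of 37.6.

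The IgG libraries also had Cd28 on top. IgG means at Cd28 were 117 and 53.1 in R397W cells, against 110.4 and 27.6 in WT cells. At Ctla4 they were 41.5 and 0 in R397W, against 2.64 and 18.7 in WT, and at Icos 29.4 and 0 in R397W, against 21.4 and 0 in WT. The order of Ctla4 and Icos turned in WT IgG replicate 1. All common sites averaged 50.1 and 35.4 in R397W IgG, against 40.2 and 31.5 in WT IgG. Foxp3 exceeded IgG in all 4 same-numbered pairs at the Ctla4 sites taken as this mean, and also over all common sites. It did so in 3 of 4 pairs at Icos and in 2 of 4 at Cd28.

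Shares of reads within a library, in which every scale factor cancels, tracked the library number. The 17 sites are 0.308% of the listed sites. They held 0.242% of listed reads in R397W Foxp3 replicate 1 (269 of 111274, exact 95% interval 0.214 to 0.272%) and 0.129% in replicate 2 (362 of 281252, 0.116 to 0.143%). In WT Foxp3 they held 0.285% (797 of 279737, 0.265 to 0.305%) and 0.0923% (364 of 394196, 0.0831 to 0.102%). R397W IgG gave 0.262% and 0.136%, and WT IgG 0.228% and 0.0791%. Each library numbered 1 thus lay above each numbered 2, with both genotypes and both antibodies. R397W was below WT between the Foxp3 libraries numbered 1 and above it between those numbered 2. Within the eTreg-specific class, the 6 member sites held 0.588% and 0.343% of reads in R397W Foxp3, against 0.647% and 0% in WT Foxp3 (0 of 48760 reads, exact 95% upper limit 0.00757%), and were 0.634% of the sites. In IgG libraries they held 0.564% and 0.823% in R397W cells, against 0.472% and 0.0167% in WT cells. The IgG share was thus above the Foxp3 one in replicate 2 of both genotypes, on few sites and reads. In R397W IgG replicate 2, 131 of the 184 reads were at the site 27.4 kb past Icos, and in WT IgG replicate 2 there were 4 reads.

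**Figure D3:**
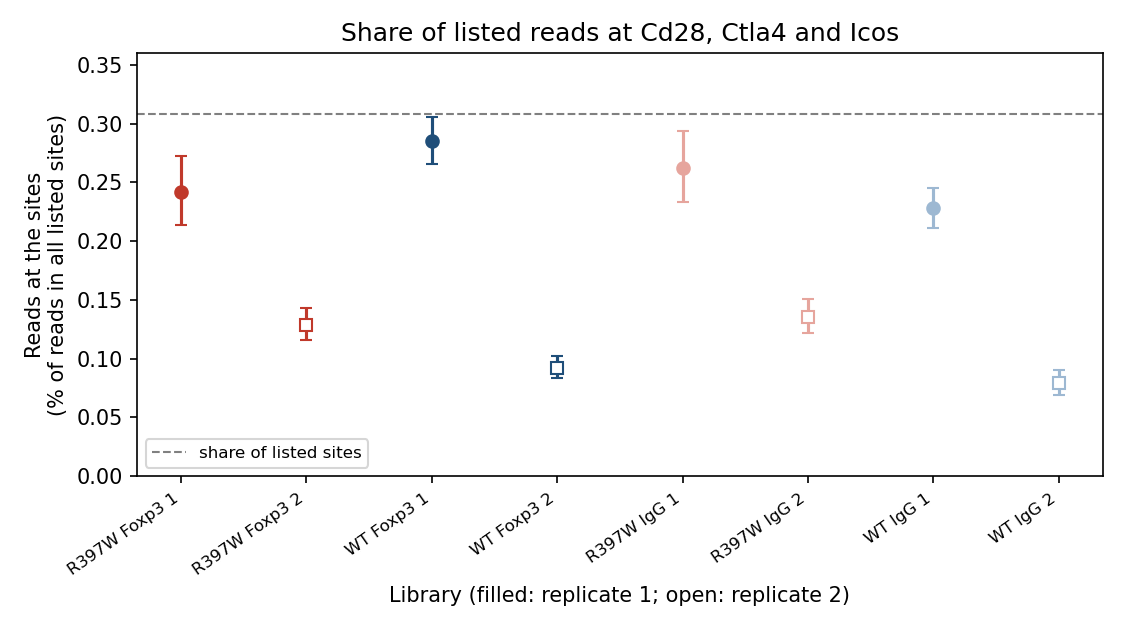
Reads at the 17 sites as a percentage of reads in all listed sites, per library, with exact 95% binomial intervals (counting error only). The dashed line is the share of listed sites, 0.308%. The 4 libraries numbered 1 lie between 0.228% and 0.285% and the 4 numbered 2 between 0.0791% and 0.136%.

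Because the factors remove a change shared by most sites with reads in all 8 libraries, only differences relative to those sites could be tested between genotypes. Across the 17 sites, the R397W and WT Foxp3 libraries were compared in that way. None passed in limma, adjusted over all sites (0% of the 5521 sites passed), and 0 had an unadjusted p under 0.05 (0.326% of all sites). By edgeR and DESeq2 on recovered reads 0 of 17 passed, as did 0 of all sites. At unadjusted p under 0.05 both gave 0 of 17, against 40 of all 5521 sites with edgeR and 60 with DESeq2. The fitted difference was above 0 at 7 sites and below 0 at 10, with a median of −0.36, against −0.39 over all sites. Without WT Foxp3 replicate 2, limma called 4 of the 17 lower in R397W, against 11.6% of all sites. These were the sites 32.5 kb before Cd28, 19.6 kb before Icos, and 26.6 and 30.5 kb past Icos, and each had 0 in both R397W Foxp3 libraries, so that no spread was left in either arm.

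**Figure D4:**
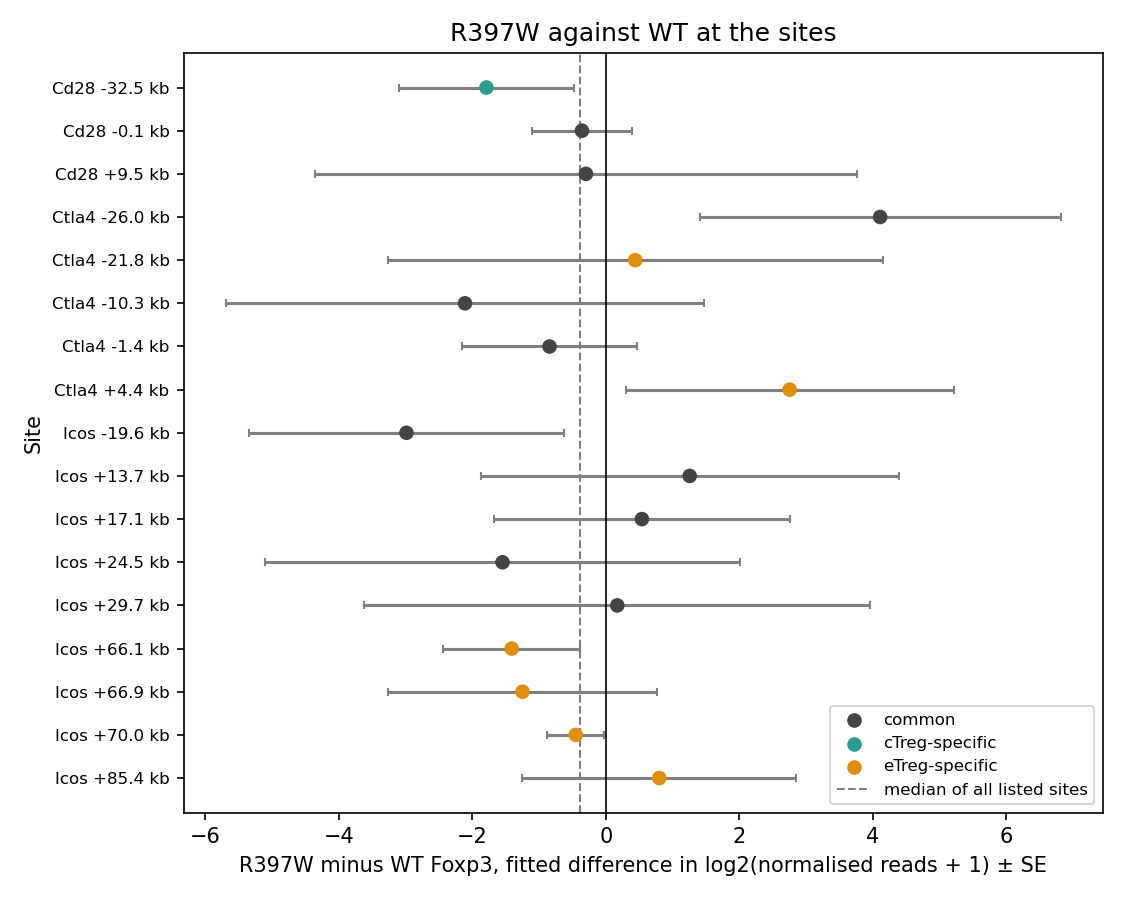
Fitted R397W minus WT Foxp3 difference at each of the 17 sites, in log2(normalised reads + 1), with its SE from limma (n = 2 libraries per genotype). The dashed line is the median of all 5521 sites, −0.39. No site passed, and the values lie on both sides of 0.

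Foxp3 was also set against IgG at each site. The factors scale Foxp3 and IgG libraries to each other, so enrichment shared by most sites with reads in all 8 libraries is removed. These fits thus show differences relative to those sites, and cannot say how far a site stood above background. Over all sites, 24.0% of the fitted differences lay below 0 in WT cells, so 0 is not the typical site there. Of the 17 sites, 0 passed in R397W cells (0% of all sites), 0 in WT cells (0.0725%) and 0 in the difference between genotypes (0%), by limma over the 8 libraries. At unadjusted p under 0.05 the counts were 1 in R397W (1.47% of all sites), 0 in WT (2.57%) and 0 for the difference (1.65%). By edgeR on recovered reads 0 of 17 passed in each, as did 0 of all sites. At unadjusted p under 0.05 edgeR gave 0 of 17 in each, against 20 of all 5521 sites in R397W, 42 in WT and 30 for the difference. By DESeq2 0 passed, as did 0 of all sites. At unadjusted p under 0.05 DESeq2 gave 1 in R397W (81 of all 5521 sites), 0 in WT (197) and 0 for the difference (109). The median fitted Foxp3 minus IgG difference was 0.25 in R397W (0.05 over all sites) and 0.73 in WT (1.27 over all sites). By pairs of the same number, Foxp3 exceeded IgG in both pairs at 3 of 17 sites in R397W (16.0% of all sites) and at 2 of 17 in WT (31.0% of all sites).

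Related genes were taken from lists chosen with earlier results of these data known. Of 10 CD28 family relatives and B7 ligands, 6 had a site (14 sites, 11 common and 3 eTreg-specific), namely the inhibitory receptor genes Pdcd1, Btla and Vsir and the ligand genes Cd86, Pdcd1lg2 and Icosl. None of the 14 sites passed in limma for R397W against WT, and 0 had an unadjusted p under 0.05 (0.326% of all sites). With edgeR and DESeq2, 0 of all sites passed. The median difference was −0.44, against −0.39 over all sites. Highest by WT mean was a common site inside Vsir (chromosome 10, 60351739 to 60352139), which encodes the checkpoint molecule VISTA, with 299 and 0.644 in R397W Foxp3 against 314 and 112 in WT Foxp3. Its IgG values were 283 and 87.8 in R397W cells and 135 and 9.95 in WT cells, so that the groups overlapped.

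Of 33 genes for signalling and trafficking partners of the 3 receptors, 18 had a site, with 56 sites (35 common, 15 cTreg-specific and 6 eTreg-specific). Rasgrp1, a Ras activator, and Cblb, a ubiquitin ligase that restrains CD28-dependent activation, had 8 sites each. None passed for R397W against WT in limma, edgeR or DESeq2. In limma 0 had an unadjusted p under 0.05 (0.326% of all sites), and the median difference was 0.13. The highest WT mean was at a cTreg-specific site inside Cblb (chromosome 16, 52147355 to 52147755), with 170.2 and 0 in R397W Foxp3 against 274 and 129.9 in WT Foxp3, and with IgG at 97.3 and 33.9 in R397W against 224 and 79.0 in WT. The Foxp3 groups overlapped there, because R397W replicate 1 exceeded WT replicate 2.

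The pattern of each gene over the 8 libraries was also set beside 1017 genes with at least 2 sites, as Pearson's r of the mean log2(count + 1) after removal of each library's mean. Libraries with the same sample name may share cells, and depth differs between libraries, so these are descriptions. Sites of all classes were averaged here, although the ratio of 2 libraries' factors differed by up to 2.09-fold between classes. The r values therefore also hold differences in scale between classes. Cd28 was most like Sec24a (r = 0.88), Arid1a (0.86) and Tnip1 (0.85). Ctla4 was most like Dock2 (0.90), Ptprc (0.87) and Cd200 (0.87), and Icos most like Wdr26 (0.91), Arid1a (0.90) and Ccr2 (0.87). These are the top ranks of many, and the 99th percentile of r was 0.80 for Cd28, 0.76 for Ctla4 and 0.82 for Icos. Among the 3 neighbours themselves, r was 0.67 between Cd28 and Icos, −0.17 between Cd28 and Ctla4, and −0.47 between Ctla4 and Icos.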

How the data were processed

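The deposited tables hold a signal per library at listed sites, a read count per site (400 bp for 5515 of 5521 sites) divided by a factor; the authors call it spike-in normalised, per the file names. Bowtie2 2.5.2, DiffBind 3.12.0, mm10 and dm6 are named in the submitters' processing notes, with no roles. Fixation (2 minutes, 0.1% formaldehyde), added spike-in nuclei, 0.5 µg of antibody and 14 to 15 PCR cycles are per the labels' protocols. In each class 100% of values were whole multiples of the smallest above 0 (tolerance 0.01), which gave back whole reads. The factors equalled median-of-ratios factors over each class's sites with reads in all 8 libraries to within 6.87e-08 percent, so the classes were scaled separately. A signal change shared by most of those sites is removed. Levels were compared within a class or as read shares, except for the likeness of genes by Pearson's r, which averaged over classes.

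The main test was limma 3.58.1 (R 4.3.3; trended, two-sided) on log2(value + 1) over all 5521 sites, unfiltered, with Benjamini-Hochberg adjustment and a threshold of 0.05. R397W against WT used the 4 Foxp3 libraries, and Foxp3 against IgG all 8. Fold changes understate those of weak sites. Tried besides were a pseudocount of 0.5 or 5, a filter on the lowest 25% of sites, equal totals, no trend, a replicate block, edgeR 4.0.16 and DESeq2 1.42.0 on recovered reads, and each library left out. The scripts were tested on simulated reads with low spread and with changes set at better covered sites. That does not show how well they find changes in these sparser data. Every site of the 3 genes is named, plus the site with the highest WT Foxp3 mean of each gene list and the 3 most alike genes. Fold changes are given for 6 sites, chosen after values were seen. Members and lists were chosen with earlier results of these data known.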

Additional observations from a re-analysis of the deposited data

How the results depend on the processing

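The call counts over all sites were 0 for R397W against WT, 0 for R397W Foxp3 against IgG, 4 for WT Foxp3 against IgG and 0 for the difference between genotypes. The count of 4 was 0 with a pseudocount of 5, with equal totals, without the trend, with edgeR, with DESeq2 and with the replicate block, which gave 0 in the other contrasts too. With a library left out the counts ranged from 0 to 643 for R397W against WT, 0 to 0 for R397W Foxp3 against IgG, 0 to 189 for WT Foxp3 against IgG and 0 to 182 for the difference between genotypes, with each maximum above 0 without WT Foxp3 replicate 2. For WT Foxp3 against IgG, the count was 34 without WT Foxp3 replicate 1, 29 without WT IgG replicate 1 and 0 without any one of the other 5 libraries. Same-numbered deviations from the group means correlated at 0.17 between R397W and WT Foxp3, 0.14 between R397W Foxp3 and IgG and 0.04 between WT Foxp3 and IgG. The labels do not state a shared animal, so the numbers were not taken to pair the samples.

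With a library left out, R397W minus WT ranged from −0.94 to 0.22 at the start of Cd28, −2.12 to 0.43 at 1.39 kb before Ctla4, −1.05 to 6.56 inside Ctla4, −1.34 to 2.42 at 17.1 kb and −3.86 to 0.76 at 24.5 kb inside Icos. At the start of Cd28, Foxp3 minus IgG ranged from −0.88 to 0.0041 in R397W and −0.64 to 3.44 in WT, and the difference between genotypes from −3.88 to 0.20. At 17.1 kb inside Icos, Foxp3 minus IgG ranged from −0.033 to 4.66 in R397W and −1.48 to 4.12 in WT. The difference between genotypes at 24.5 kb inside Icos ranged from −5.34 to −0.72. On recovered reads, edgeR and DESeq2 gave −0.018 and −0.018 inside Ctla4 and −0.12 and −0.13 at 17.1 kb inside Icos. The cause of these turns was not tested. The other 124 site values under settings other than leaving a library out kept their direction and stayed short of the threshold.

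A limit of 10 kb for the nearest gene end left 8 of the 17 sites. On common sites alone, the share of reads at the 3 genes was 0.251% and 0.116% in WT Foxp3 (replicates 1 and 2), 0.0780% in R397W IgG replicate 2 and 0.0921% in WT IgG replicate 2. In the other 4 libraries it stayed within its counting interval. Most of the 17 sites lacked reads in the libraries numbered 2, which limits the comparisons there.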
